A study of Laguncularia racemosa with 22 samples.

Results

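The early change in leaves of seedlings labelled P, between 0 h and 3 h of freezing temperature, is described here for the white mangrove *Laguncularia racemosa*, a tree of warm coasts. It was chosen by sample title, and it holds 5 of the 22 RNA sequencing libraries: replicates 1, 2 and 3 of P at 0 h and replicates 2 and 3 of P at 3 h. A replicate 1 of P at 3 h was not analysed here. All seedlings are labelled wild type and 8 weeks old. They had been raised at 30 °C by day and 28 °C by night with 16 h of light, and the treatment text gives 0 °C as the stress. A second set of seedlings, labelled Q, has the treatment label control at 0 h and at 3 h with 3 libraries each, and is used below for comparison. The treatment text that stands with Q is the same as that with P, so what was done to Q is not known from the labels. Seeds came from 2 places that the labels do not tie to a letter.

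Cold reaches a leaf within minutes as a stiffening of membranes and an influx of calcium. In Arabidopsis, transcripts of transcription factors such as the CBF proteins accumulate within the first hours, and those of the protective proteins and sugar-metabolism enzymes they control accumulate later. Leaf transcripts also follow the circadian clock and the light period, so that some of them change over a few hours in undisturbed plants. The files give each gene by the ID of an assembled transcript and pair no ID with a name or sequence. The genes below are therefore described by their behaviour, 4 of them are named by ID, no role is assigned to any, and leaf marker genes could not be checked.

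Total counts were 16921089 to 18462363 in the 3 libraries at 0 h and 15586458 and 14989005 in the 2 at 3 h, and 21694 genes were tested of 54696 in the table. Gene levels are given as CPM (counts scaled to a common library size) on library sizes scaled by TMM, which are not divided by transcript length, so they are compared between libraries and not between genes. Per gene, libraries of P at 0 h lay 0.52 to 0.53 apart in mean absolute log2 CPM, the 2 at 3 h 0.48 apart, and a 0 h from a 3 h library 0.60 to 0.68. The step from 0 to 3 h was thus larger than any distance within either group. Leaf RNA was taken plant by plant according to the labels, but which library holds which plant is not stated, so the p-values cover the spread between libraries, part of which may be technical. In bulk leaf RNA, fewer cells of a type and less RNA per cell cannot be told apart.

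Among genes that passed the test in leaves of P, more were higher than lower at 3 h. In edgeR's quasi-likelihood test 1142 genes passed an adjusted p of 0.05, 5.26% of those tested, and 818 of them (3.77%) were higher and 324 (1.49%) lower at 3 h. Over all genes tested, 47.3% had a log2 change above 0, so the excess of rises is one of the genes called. Called rises were also larger than called falls. That compares called genes only. Their median standard errors were 0.25 for rises and 0.21 for falls, and a gene with a larger one must change more to be called. Among the 818 genes that rose, 528 (64.5%) changed at least 2-fold, a log2 of 1, and 221 (27%) at least a log2 of 2. Among the 324 that fell, 137 (42.3%) and 41 (12.7%) did. The middle 50% of the rises ran from a log2 of 0.84 to 2.10 and that of the falls from -1.45 to -0.67, around medians of 1.26 and -0.91. The median over all genes tested was -0.02.

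**Figure D1:**
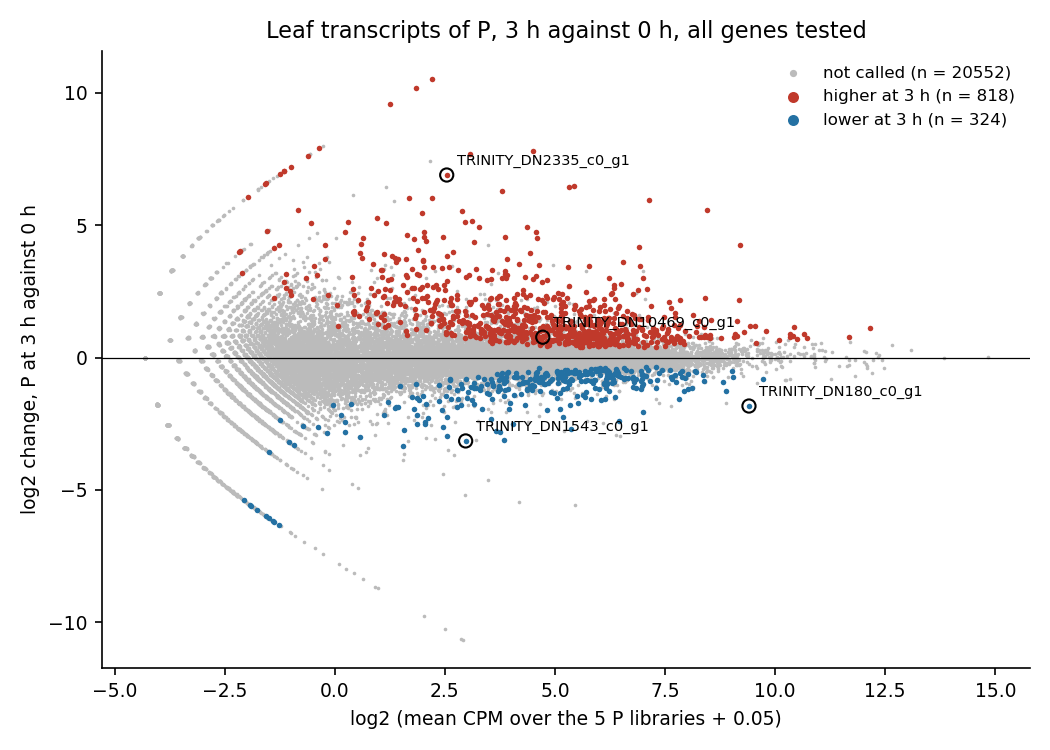
Each point is 1 of the 21694 genes tested, with the log2 of its mean CPM over the 5 P libraries (plus 0.05) on the horizontal axis and its log2 change from 0 to 3 h on the vertical axis. The 818 genes called higher are red, the 324 called lower blue, and the 4 named genes are circled; calls of rises reach further from 0 than calls of falls, and the curved grey bands at the left are genes with few counts.

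Both 3 h libraries lay above all 3 of 0 h for 815 of the 818 genes that rose, and below them for all 324 that fell. Over all genes tested, 18.6% were free of overlap in the rising and 17% in the falling direction. The 2 libraries at 3 h showed the changes alike. Relative to the mean of 0 h, the genes that rose had a median log2 CPM difference of 1.22 in replicate 2 and 1.27 in replicate 3, and those that fell -0.90 and -0.91. Replicate 2 was the higher one of the pair for 389 of the 818 rises (47.6%) and 48.5% of all genes tested. Since these libraries chose the genes, the values describe them and test nothing further.

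The number of genes called depended on single libraries. Leaving out replicate 3 of 0 h gave 659 genes. With only replicate 3 of 3 h kept there were 478, and with only replicate 2 of 3 h kept 400, where the lone 3 h library is assumed to vary like the other groups. It was 600 with only the 5 libraries compared and 1813 with DESeq2. In the fits that left out each of the 5 libraries in turn, 236 genes were called every time, 217 of them higher and 19 lower, with a median absolute log2 change of 1.63. None of the 1142 genes reversed its sign in those of the 15 alternative fits that tested it. That was nearly fixed in advance, since 815 of the 818 rises and all 324 falls were free of overlap between these libraries. The share of rises among the calls was 71.6%, and 60.8% with library totals in place of TMM.

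TRINITY_DN2335_c0_g1 had the largest rise among genes that met the rule for naming (called, free of overlap, at least 5 CPM on average and alone in their assembly cluster). It had 6, 0 and 0 counts in the 3 libraries at 0 h and 171 and 248 counts at 3 h, or 0.351, 0 and 0 CPM against 11.3 and 17.2 CPM. This transcript was close to absent at 0 h in each library and present in both at 3 h. The means were 0.117 ± 0.202 CPM (SD, n = 3) and 14.2 ± 4.24 CPM (SD, n = 2), and the log2 change was 6.90 (standard error 1.22, adjusted p = 0.00287 in edgeR). It passed in each alternative fitted, with adjusted p-values from 3.91e-07 to 0.0216. Its log2 change was 10.86 without replicate 1 of P at 0 h, a fit in which 0 h has no count left, so that the size depends on the prior count. In Q it went from 0.346 ± 0.266 to 14.8 ± 4.49 CPM (SD, n = 3 each), with an adjusted p of 0.00282 in edgeR. At 12 and 36 h in P its libraries were far apart, at 3.85, 21.8 and 7.92 CPM and at 1.80 and 28.9 CPM.

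TRINITY_DN10469_c0_g1 was named because, among the rises that met this rule, its change had the lowest p for a difference between P and Q. In P it was at 17.5, 22.5 and 21.7 CPM at 0 h and at 36.9 and 33.2 CPM at 3 h, with no overlap. In Q it was at 11.7, 14.4 and 11.6 CPM at 0 h and 36.6, 48.0 and 40.9 CPM at 3 h. The groups of P and Q did not overlap at 0 h, where P was higher, and did at 3 h. Its log2 change was 0.77 in P with a standard error of 0.14 (adjusted p = 0.00226 in edgeR) and 1.74 in Q with a standard error of 0.13 (adjusted p = 1.42e-07 in edgeR). The difference of the changes, -0.97 with a 95% interval of -1.37 to -0.57, had an unadjusted p of 6.5e-05 and did not pass over all genes (adjusted p = 0.338 in edgeR). The interval takes no account of the gene having been picked for this difference. The rise in P had adjusted p-values from 1.23e-05 to 0.0506 over the alternatives and missed the threshold without replicate 2 of P at 3 h (0.0506) and with only the libraries compared (0.0501). At 12 h the gene was at 96.4 ± 8.21 CPM (SD, n = 3) in P and at 82.5 ± 5.90 CPM (SD, n = 3) in Q.

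TRINITY_DN1543_c0_g1 had the largest fall under the same rule, from 6.02, 20.5 and 9.72 CPM at 0 h to 1.18 and 1.53 CPM at 3 h. Its 0 h libraries were spread widely and its 3 h libraries, at 18 and 22 counts, lay together below them. The means were 12.1 ± 7.52 CPM (SD, n = 3) and 1.36 ± 0.244 CPM (SD, n = 2), and the log2 change was -3.15 (standard error 0.86, adjusted p = 0.0399 in edgeR). That call was weak: over the alternatives the adjusted p ran from 0.000834 to 0.255, and it missed the threshold when replicate 2 or 3 of 0 h (0.111 and 0.0643) or replicate 2 or 3 of 3 h (0.255 and 0.254) was left out, with no filter (0.136) and with only the libraries compared (0.0531). In Q the values overlapped, at 4.67, 11.05 and 6.74 CPM at 0 h and 5.38, 5.64 and 1.25 CPM at 3 h, and the log2 change of -0.86 did not pass (standard error 0.66, adjusted p = 0.497 in edgeR). Its difference between P and Q did not pass over all genes either (log2 -2.28, standard error 1.04, adjusted p = 0.899 in edgeR).

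TRINITY_DN180_c0_g1 lost the most CPM of the falling genes under the rule. It was at 772, 1080 and 1004 CPM at 0 h, from 13203 to 19652 counts, and at 248 and 288 CPM at 3 h. All 0 h libraries were more than 2-fold above both 3 h libraries. The log2 change was -1.83 (standard error 0.42, adjusted p = 0.0145 in edgeR), and the adjusted p ran from 4.23e-05 to 0.153 over the alternatives and missed the threshold when replicate 2 or 3 of 3 h was left out (0.153 and 0.128) and with no filter (0.0506). By 12 h the transcript stood at 1313 ± 575 CPM (SD, n = 3), at 1760, 1516 and 664 CPM in the 3 libraries, and its log2 change against 0 h, 0.46, did not pass (adjusted p = 0.339 in edgeR). In Q it was at 395, 858 and 427 CPM at 0 h and 245, 462 and 356 CPM at 3 h, with overlap, and the log2 change of -0.66 did not pass (standard error 0.35, adjusted p = 0.285 in edgeR). By 12 h in Q the transcript stood at 1877 ± 304 CPM (SD, n = 3), a log2 change against 0 h of 1.75 (adjusted p = 0.000834 in edgeR). The difference between the changes from 0 to 3 h in P and Q did not pass over all genes (log2 -1.17, standard error 0.53, adjusted p = 0.899 in edgeR).

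**Figure D2:**
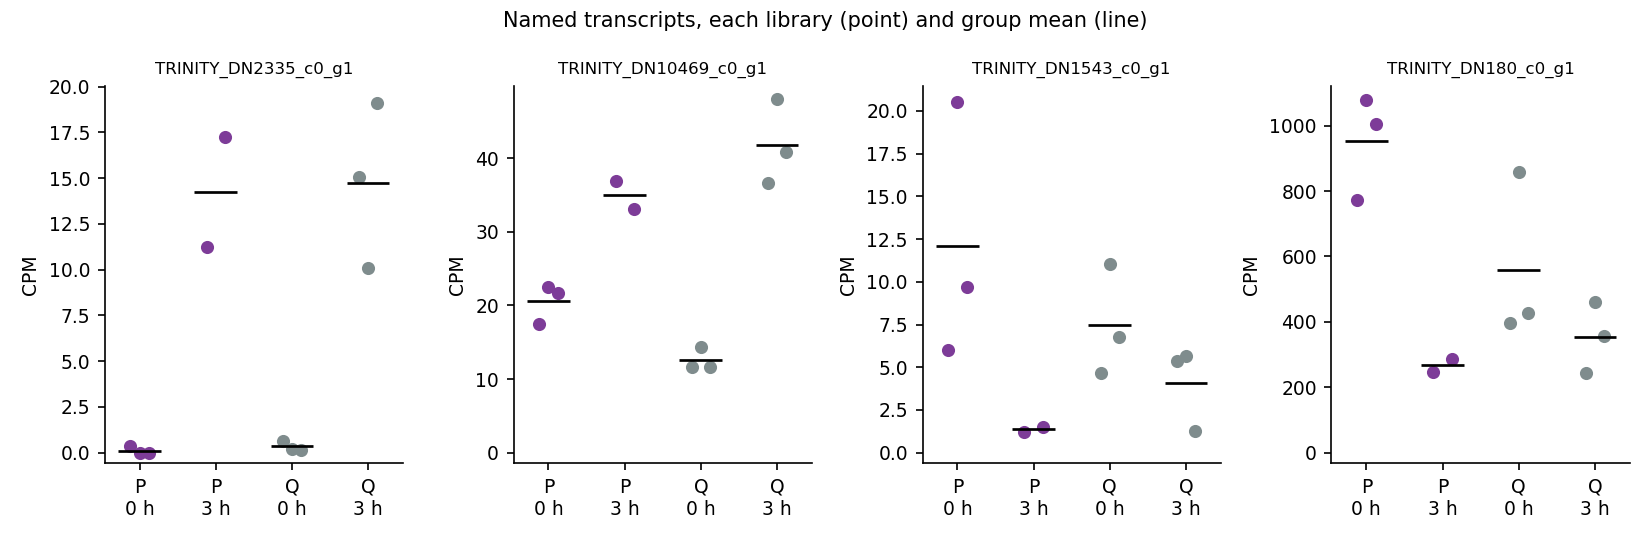
CPM of the 4 named genes (vertical axis, linear, 1 panel a gene) in each library of P and Q at 0 and 3 h; points are libraries and lines are group means. In P the 3 h points are above all 0 h points for TRINITY_DN2335_c0_g1 and TRINITY_DN10469_c0_g1 and below them for TRINITY_DN1543_c0_g1 and TRINITY_DN180_c0_g1, while the Q points of the last pair overlap.

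A few transcripts went from no count to some, or the reverse. Of the 818 rises, 12 had 0 counts in all 3 libraries at 0 h and 2 to 236 counts in a library at 3 h. Against a floor of 3 counts over the 0 h group they were at least 9.19-fold to at least 204-fold higher, with a median bound of 19.1-fold. The test called 4 of these 12 higher in Q as well, where 5.9% of all genes tested were called higher. Of the 324 falls, 9 had 0 counts in both 3 h libraries. These started low, at 2 to 22 counts a library, and were at least 3.09-fold to at least 6.02-fold lower against a floor of 3 counts over the 3 h group. In Q none of the 9 was called lower by edgeR and none was at 0 counts in all 3 libraries at 3 h. Of all genes tested only 3.82% were called lower in Q, so with 9 genes of few counts nothing particular to P is read from this. The medians of all rises and falls were still 1.26 and -0.91 with these genes set to their bounds. Floors and bounds cover counting error only.

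How small a change could be called depended on a gene's counts. Genes were put into 5 classes of about equal size by their mean count over the 5 libraries. In the lowest class, with a mean of up to 8.2 counts, 0.737% were called and the smallest log2 change called was 2.25 in size. In the next class, up to 60.8 counts, 2.79% were called, with a smallest change of 0.84. The 3 classes above it had 6.76%, 7.33% and 8.71% called, and in the highest, from 821 counts, a log2 change of 0.37 was called. Smaller changes of the low classes were not detectable at this depth. In each class more of the calls were rises than falls, from 62.5% in the lowest class to 82.6% in the second.

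The genes that rose took up more of the libraries at 3 h. The 818 genes held 4.27%, 4.61% and 4.46% of all counts at 0 h and 9.14% and 9.03% at 3 h. The 324 genes that fell went from 2.29%, 2.37% and 2.75% to 1.34% and 1.29%. These shares need no scaling between libraries, but the genes were chosen on these libraries. A small part of the list carried most of the gain: 44 of the 818 genes held 50% of the summed rise in mean CPM, 10 of them 26.2%, and 96 genes gained at least 100 CPM. Among the falls, 35 of 324 genes held 50% of the summed loss, 10 of them 26.9%, and 21 lost at least 100 CPM.

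The next question was whether the genes called in P moved in the Q seedlings over the same hours. No library is shared between P and Q, although the test draws on 1 estimate of the spread over all 22 libraries. In Q, 2109 genes were called, 9.72% of those tested, with 1281 higher (5.9%) and 828 lower (3.82%). With library totals in place of TMM the balance turned, to 975 higher and 1605 lower in Q, and the median log2 change of all genes tested went from -0.02 to -0.13 in Q and from -0.02 to -0.08 in P. Of the 818 genes that rose in P, 573 were also called higher in Q, which is 70% of the P list and 44.7% of the Q list. Of the 324 that fell, 194 were called lower in Q, 59.9% of the P list and 23.4% of the Q list. Both counts depended on single libraries: leaving out replicate 2 or replicate 3 of P at 3 h gave 336 and 279 shared rises and 46 and 40 shared falls, and leaving out replicate 3 of P at 0 h gave 97 shared falls. With library totals there were 309 shared falls, with DESeq2 332, and with only the libraries compared 302 shared rises and 94 shared falls. No gene called in P was called in the opposite direction in Q by edgeR.

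Most of these genes changed in the same direction in Q. For the rises in P the median log2 change in Q was 1.06, the middle 50% ran from 0.62 to 1.75, and 803 of 818 were above 0, against a median of -0.02 and 47.9% above 0 over all genes tested. For the falls in P the median in Q was -0.67, the middle 50% ran from -1.08 to -0.41, and 313 of 324 were below 0. The 245 rises in P that were not called in Q had a median log2 change of 0.52 in Q and 1.38 in P, and 230 of them were above 0 in Q. The 130 falls not called in Q had medians of -0.36 in Q and -0.91 in P, and 119 were below 0 in Q. Both sets were chosen for passing in P and not in Q, which favours a larger change in P. Their medians therefore do not show a stronger response in P. All 3 libraries of Q at 3 h lay above all 3 of 0 h for 663 of the 818 genes and below them for 250 of the 324; over all genes tested this held for 14.1% and 12.6%.

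**Figure D3:**
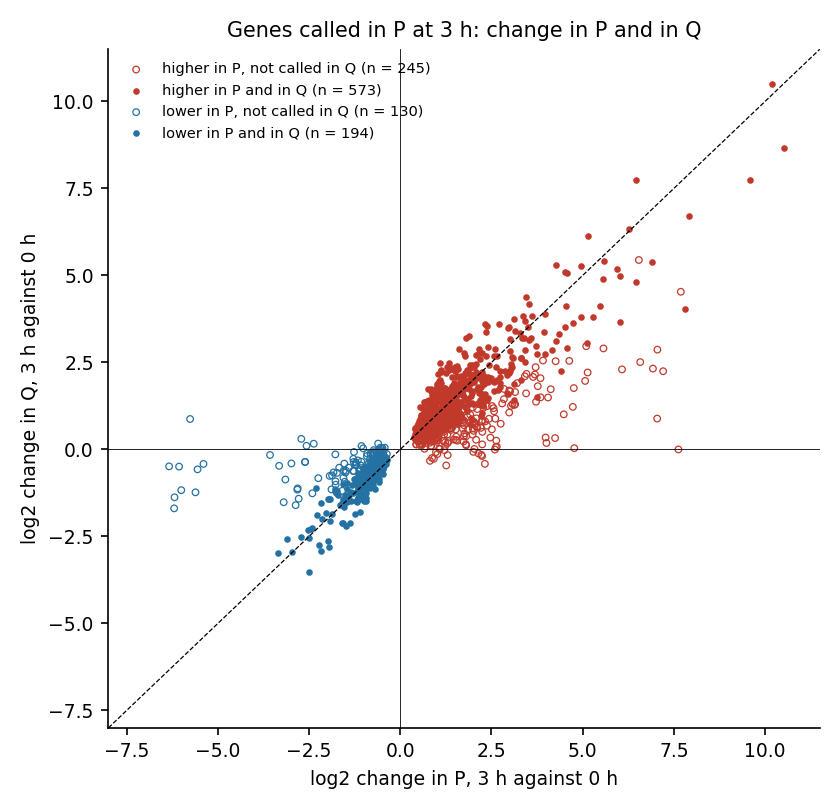
Log2 change from 0 to 3 h in P (horizontal axis) and in Q (vertical axis) for the 1142 genes called in P, red where higher and blue where lower in P, filled where Q was called in the same direction; the dashed line marks equal change. The 573 and 194 filled points have the same sign in both letters, and the open points of the rises have a median of 0.52 in Q against 1.38 in P. The open points were chosen for passing in P and not in Q, which favours a larger change in P.

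Read from the other side, genes called in Q were followed in P. The P libraries entered that call only through the filter, the scaling and the pooled spread. The 1281 genes called higher in Q had a median log2 change of 0.73 in P, and the 828 called lower had -0.49. In P, 1246 of the 1281 were above 0 and 789 of the 828 below 0, where 47.3% of all genes tested were above 0. The 2 libraries at 3 h gave the same picture of these lists, with medians of 0.70 and 0.76 over the mean of 0 h for the former and -0.46 and -0.50 for the latter. In counts, the 1281 genes went from 9.25%, 9.74% and 9.53% of a P library at 0 h to 14.7% and 14.6% at 3 h, and the 828 genes from 5.29%, 5.18% and 5.67% to 3.69% and 3.49%, without overlap. At 3 h edgeR called 44.7% of the 1281 genes higher and 23.4% of the 828 lower in P. Over all genes tested it called 3.77% higher and 1.49% lower in P.

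A direct test of the difference between the letters found few genes. P and Q at 3 h differed in 3 genes (0.0138% of those tested), and 1237 (5.7%) had an unadjusted p under 0.05. The change from 0 to 3 h differed for 1 gene (0.00461%), and 1196 (5.51%) had an unadjusted p under 0.05. Of the 3, one was the gene described below; one went from a mean of 73.1 to 54.4 CPM in P and from 54.4 to 25.5 CPM in Q; and one was low throughout, at 0.949 and 0.269 CPM in P and 2.27 and 3.93 CPM in Q. DESeq2 called 27 and 25 genes, and a fit of only the libraries compared called 0 and 0. Between the letters, P and Q libraries at 3 h lay 0.47 to 0.55 apart in mean absolute log2 CPM, against 0.48 between the pair of P and 0.44 to 0.50 within Q. A p that misses the threshold does not show equal change, and the intervals set the limit. The 95% interval of the difference in change lay within 2-fold in either direction for 328 of the 818 rises in P (40.1%), 187 of the 324 falls (57.7%) and 41.4% of all genes tested. For the other genes a difference of 2-fold is not excluded by these data.

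The median of that difference, P minus Q, was 0.18 among the rises and -0.21 among the falls called in P, and -0.26 and 0.27 among the rises and falls called in Q. In each case the letter in which the genes were chosen showed the larger change, and the libraries that chose them enter the difference. These medians therefore do not show that either letter responded more.

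The single gene whose change differed was at 20.3, 36.4 and 27.0 CPM in P at 0 h and 156 and 105 CPM at 3 h. In Q it was at 27.3, 29.8 and 29.6 CPM at 0 h and 22.6, 26.2 and 29.1 CPM at 3 h. Both P libraries at 3 h stood apart from every other library of these hours, and the gene was at 20.7, 23.2 and 24.99 CPM in P at 12 h, within its 0 h range. At 36 h it was at 41.2 and 55.5 CPM in P, above all 0 h libraries, and at 16.4, 15.4 and 17.7 CPM in Q. Its log2 change was 2.22 in P (standard error 0.20, adjusted p = 2.02e-06 in edgeR) and -0.15 in Q (standard error 0.18, adjusted p = 0.688 in edgeR). It was singled out after its values were seen and its ID, which carries no name, is not printed. It shares an assembly cluster with 1 other tested ID that had at most 348 counts in a P library of 0 or 3 h, so part of its reads may be split with that ID. With counts summed over clusters the number called for the difference was still 1, but which cluster this was is not recorded. With only the libraries compared the number was 0, so this gene lost its call there.

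What became of the genes called at 3 h was read from the later libraries. The comparisons at 12 and 36 h in P share the 0 h libraries with that at 3 h, so their values are set side by side and no overlap is drawn from them. The 818 rises had median log2 changes of 1.26 at 3 h, 0.87 at 12 h and 1.31 at 36 h, the last after 24 h of recovery. The 324 falls had -0.91, -0.46 and -0.38. Over all genes tested the medians stayed between -0.04 and 0.00. By group mean, 327 of the 818 rises had their highest level in P at 3 h, 223 at 12 h and 268 at 36 h, and 202 of the 324 falls their lowest at 3 h, 65 at 12 h and 57 at 36 h. For the rises these are 40%, 27.3% and 32.8%, against 19.2%, 26.0% and 31.8% of all genes tested, and for the falls 62.3%, 20.1% and 17.6%, against 22.6%, 28.0% and 28.7%. The 0 and 3 h libraries chose the genes. None of the rises was highest and none of the falls lowest at 0 h, against 23.0% and 20.7% of all genes tested. The bases are therefore unlike, and nothing is read from the shares at 3, 12 or 36 h.

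The Q libraries entered the choice of these genes only through the filter, the scaling and the spread pooled over all libraries. In Q the 818 genes had median log2 changes of 1.06, 0.76 and 0.76 at 3, 12 and 36 h. The 324 genes had -0.67, -0.14 and -0.14. The highest of the 4 group means in Q was at 3 h for 50.9% of the rises against 20.5% of all genes tested. The lowest was at 3 h for 61.4% of the falls against 21.7% of all. Only 0.978% of the rises were highest at 0 h in Q, against 25.7% of all genes tested. Of the falls 3.4% were lowest at 0 h, against 24.6% of all. The bases are thus unlike in Q as well, and the shares at 3 h are not read as a peak. At 12 h in Q, 427 of the 818 (52.2%) were called higher and 97 lower than at 0 h, where 17.9% and 19.9% of all genes tested were, and of the 324, 113 (34.9%) were called lower and 68 higher.

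The share of all counts in each list was also followed over the times in both letters. The 818 genes rose from 4.45% ± 0.17 to 9.08% ± 0.0820 of the counts of P at 3 h and stood at 13% ± 0.498 at 12 h and 10.9% ± 0.680 at 36 h (SD, n = 3, 2, 3 and 2). In Q they went from 4.34% ± 0.224 to 9.33% ± 0.224, 12.0% ± 0.387 and 10.5% ± 0.562 (SD, n = 3 each). The 324 genes went from 2.47% ± 0.248 to 1.31% ± 0.0317, 1.78% ± 0.104 and 1.91% ± 0.112 in P, and from 2.25% ± 0.0662 to 1.36% ± 0.0578, 2.01% ± 0.0545 and 2.01% ± 0.0255 in Q, with the same SD and n. In Q the libraries at 3 h were the lowest of all times for the falling genes. The same held in P, but there the 3 h libraries had chosen these genes. The labels give no time of day for any library, and in P the hour and handling cannot be told apart from the cold.

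**Figure D4:**
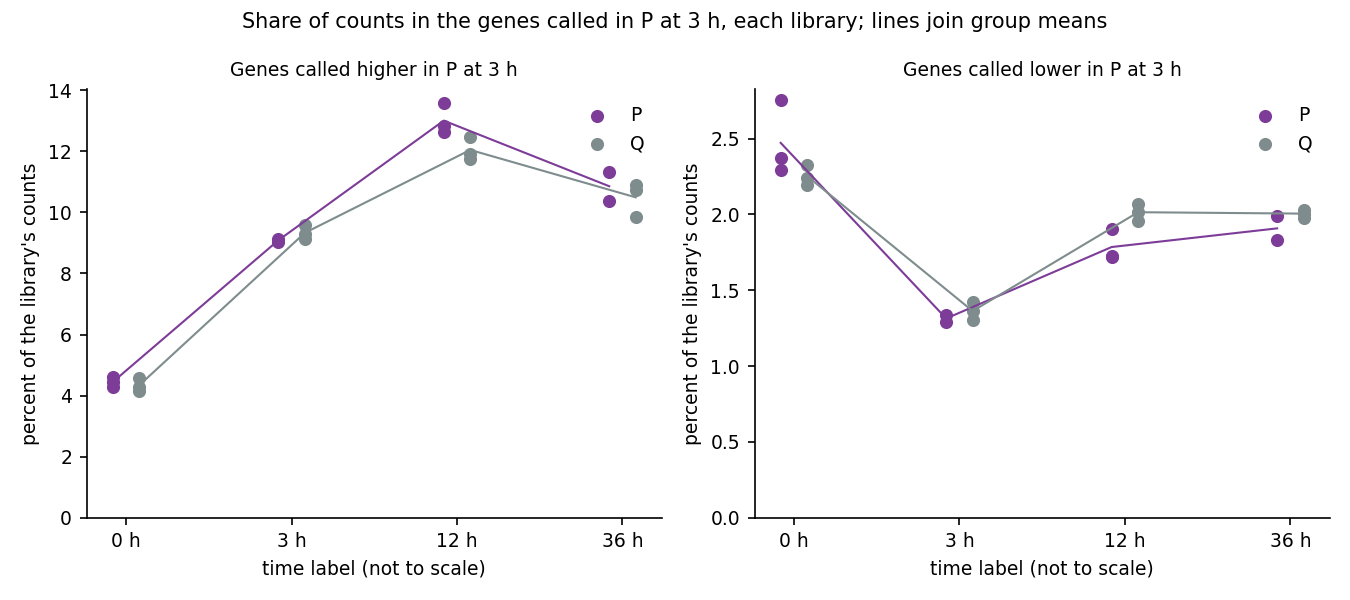
Percent of a library's counts (vertical axis, from 0) in the 818 genes called higher (left) and the 324 called lower (right) in P at 3 h, for each of the 22 libraries by time label; lines join group means of P (purple) and Q (grey). The rising list is at 9.03% and 9.14% in P at 3 h, above its 0 h shares of at most 4.61%, and the falling list is lowest at 3 h in both letters. The P libraries at 0 and 3 h chose both lists, so their points describe the lists and test nothing.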

How the data were processed

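Total RNA of leaves was the starting material for sequencing, and the authors deposited 1 table of raw counts, with 1 whole number per assembled gene and library. FastQC, HISAT2 and featureCounts were used, per the submitters' processing notes. Their versions and what reads were aligned to are not given in the sources used here. The IDs have the form that the assembler Trinity gives, and no sequence or annotation was used here, so no list of genes by function was tested.

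Counts of all 22 libraries were fitted together in 8 groups with edgeR 4.0.16 in R 4.3.3: filterByExpr with a minimum count of 10, TMM scaling, dispersions estimated over all groups (common biological coefficient of variation: 0.264), and robust quasi-likelihood fits. The fits were tested on simulated data. Calls were made at adjusted p-values (Benjamini-Hochberg, over all genes tested) below 0.05. Standard errors are the fitted log2 change over the root of the F statistic. The spread is pooled over groups, also for the 2 libraries of P at 3 h. Replicate pairs differed by 17.8 to 57.3 in chi-square per gene, where sampling noise alone gives about 1, so each library counted as 1 replicate. A gene at 1 CPM rests on 14.4 to 18.7 counts in a P library of 0 or 3 h. The table has 0 columns beside those of the 22 libraries.

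The comparison, lists and tests were chosen with earlier results of these data known. Named genes were called, had a mean of at least 5 CPM over the 5 libraries, no overlap, and no other ID in their cluster (the ID without its last field); 473 rising and 202 falling genes met this. Of these the largest rise, the lowest p for the difference between letters, the largest fall and the largest loss in CPM were taken. What counts as a cluster was settled after values were seen, and with the ID shortened by 1 more field 3 of the 4 named genes would be others. DESeq2 1.42.0, other scalings, filters, sets of libraries and a replicate block were alternatives.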

Additional observations from a re-analysis of the deposited data

Results flagged for a closer look

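One result met a rule for a closer look, a difference between the letters in the change from 0 to 3 h. The log2 change of the gene described above as differing was larger in P than in Q by 2.38, with a standard error of 0.27 and an adjusted p of 0.00065 in edgeR's test of the difference. Both of the 2 P libraries moved up and the 3 Q libraries at 3 h stayed in or below the range of Q at 0 h. A fit of only the libraries compared called 0 genes for the difference in change. No cause of the difference was tested.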

How the results depend on the processing

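Of the 239 values recomputed, 171 were classed as the same, 0 reversed, 57 moved and 11, all of named genes in P, lost their call. The rule differed by kind of value. A named gene was the same if it kept its sign and its call, with no check of size. A count was the same within a set ratio of the main count, with no check of direction. The percent higher was the same from 68.9 to 74.2, its binomial interval. A median in Q was the same within 1 SD over the Q libraries at 3 h. Only named genes and medians could be classed as reversed. The number called in Q is among the 171, at 2580 with library totals, although its balance turned there from 1281 higher and 828 lower to 975 and 1605. Genes called in P were 1142; DESeq2 gave 1813, only the libraries compared 600 and a 2-fold minimum 665 (941 in Q). The percent higher was 60.8 with library totals, 67.9 with a stricter filter (10 counts in at least 11 libraries), 66.0 with DESeq2 and 77.3 with only the libraries compared. Rises shared with Q were 302 with only the libraries compared; shared falls were 309 with library totals, 332 with DESeq2 and 94 with only the libraries compared. The median change in Q of the P rises was 0.91 with DESeq2 and 1.17 with only the libraries compared. That of the P falls was -0.70 with library totals or no filter, -0.62 with the stricter filter, -0.59 with DESeq2 and -0.89 with only the libraries compared. P against Q at 3 h gave 19 genes with no filter, 27 with DESeq2 and 0 with only the libraries compared, and the difference in change 4, 25 and 0. The cause of these moves was not tested, beyond fewer libraries or other genes tested where the setting says so.

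Leaving out 1 library at a time gave 400 to 1092 genes called in P with 64.7% to 87% higher, 1321 to 1848 in Q, 1 to 3 for P against Q at 3 h, and 1 to 2 for the difference in change. Without replicate 2 of Q at 3 h the calls in Q were the 1321. Shared rises were 279 to 554, shared falls 40 to 190, and the median changes in Q 1.00 to 1.36 and -0.96 to -0.53. A replicate block shared by all 22 libraries gave 1066 genes called in P, 1 for P against Q at 3 h and 3 for the difference in change, and the median of the P falls in Q was -0.62; with a block within each letter 884 were called in P. Same-numbered P libraries of 0 and 3 h had deviations correlated at 0.06 for replicate 2 and -0.05 for replicate 3. With 2 libraries at 3 h their deviations are exact opposites, so these values cannot settle whether the numbers pair libraries. The main fit assumed no pairing. Genes with few counts are limited by depth.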

Other observations

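Large fitted changes were mostly not called. Of the 21694 genes tested, 628 had a fitted log2 change of at least 3 in size between P at 0 and 3 h, 286 of them higher and 342 lower. The test called 123 of them (19.6%), 108 higher and 15 lower. The 505 not called had a median of 2.8 counts a library, against 52.6 in the 123 called. In 150 of the 505, at least 80% of the CPM over the 5 libraries came from 1 library, and these were spread over all 5, with 35, 29 and 20 for replicates 1, 2 and 3 of 0 h and 30 and 36 for replicates 2 and 3 of 3 h. The same held for 6 of the 123 called. No single library held most of these 150.

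The genes called were also read by assembly cluster. The 1142 genes called in P fell into 1121 clusters, and 812 of them were alone in theirs. In 21 clusters 2 genes were called, 14 with both higher, 2 with both lower and 5 with 1 in each direction. A further 346 tested genes shared a cluster with a called gene and were not called. Reads can be split between near-identical members of a cluster, and the values of these genes may be uncertain for that reason. Whether reads were split here was not tested.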
